A study of Boehmeria nivea with 10 samples.

Results

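In 69 contigs of ramie (Boehmeria nivea) roots, FPKM was lowest in early hydroponic roots (in water, seedlings of 5 days), higher in terrestrial roots grown in soil, and highest in late hydroponic roots (in water, seedlings of 30 days). The contigs were selected on their FPKM in all 9 libraries, by joining the tables of 9 libraries and keeping contigs that carry no assembly cluster number and had at least 10 expected counts in every library. The lowest late hydroponic FPKM then had to exceed the highest terrestrial FPKM, called the first step when written as a ratio. The lowest terrestrial FPKM had to exceed the highest early hydroponic FPKM, called the second step, and the late mean had to be at least 2 times the early mean. FPKM is a read level scaled by contig length and library size. Of 40300 contigs in the tables, 31098 were unclustered and 13171 of those passed the count minimum. The order and size were met by 69, which are ranked here by the smaller of their steps.

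The early hydroponic group held 3 libraries of roots induced in water on 5-day-old seedlings, the late hydroponic group 3 of roots induced in water on 30-day-old seedlings, and the terrestrial group 3 of soil-grown roots of 30-day-old seedlings. Early roots therefore differ from terrestrial roots in both medium and seedling age, and late from early roots in seedling age. Late and terrestrial roots share the seedling age and differ in medium, but also in how the roots arose, induced in water or grown in soil. Only the age of the seedlings is given, not that of the roots, so medium and root age cannot be told apart there. No genotype, strain or added agent is named in the labels, and they do not say if each library is a plant of its own. A further pooled sample served for the assembly and was not analysed here.

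Roots that form in water take up oxygen from a medium in which it diffuses slowly, and many plants respond with air-filled tissue, changed cell walls and a shift towards fermentation. Ramie, a bast-fibre crop of the nettle family, is normally grown in soil and propagated from rhizomes and cuttings. The contigs come from a de novo assembly, and the tables pair none of them with a gene name, so no role is given for any contig, and the identity of the tissue was not checked against marker genes. In whole roots, fewer cells of a type and less RNA per cell cannot be told apart.

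Listed expected counts summed to between 9499903 and 11522430 per library. Late replicate 3 stood closer to the early roots than the other late libraries did, with a mean correlation across contigs of 0.908 with the early libraries, against 0.871 and 0.884 for late replicates 1 and 2. Terrestrial replicate 2 had the lowest mean correlation with the early libraries among terrestrial ones, 0.688 against 0.732 and 0.742. Both libraries bear on which contigs meet the order, and counts without them are given below.

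The order was uncommon. Late roots lay above terrestrial roots in 4047 of the 13171 contigs (30.7%) and terrestrial above early roots in 5943 (45.1%), with no overlap between the 3 libraries of each group. Both held in 103 contigs, of which 69 also met the size of 2-fold, 0.524% of the contigs screened. The same screen for early above terrestrial above late found 13 contigs (0.0987%). The orders with terrestrial roots at an end were more frequent, at 1203 contigs for terrestrial above late above early, 770 for early above late above terrestrial, 260 for late above early above terrestrial and 153 for terrestrial above early above late. Among 5154 clustered contigs with the same count minimum, 32 (0.621%) had the late, terrestrial, early order. Because the rule used the FPKM of all 9 libraries, the order of the groups in these contigs is a description and was not tested.

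**Figure D1:**
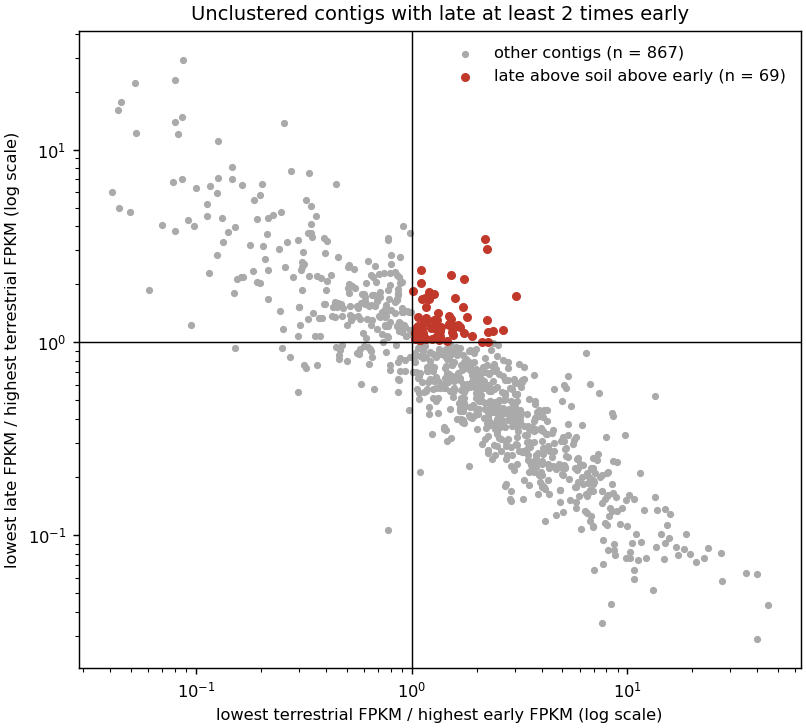
Each point is 1 of 936 unclustered contigs in which all late libraries lay above all early ones and the late mean was at least 2 times the early mean; the x axis is the second step (lowest terrestrial over highest early FPKM) and the y axis the first step (lowest late over highest terrestrial FPKM), both as ratios on log scales, with lines at 1. The 69 red points lie where both exceed 1. Each of the other 867 has at least 1 soil library at or above a late one, or at or below an early one.

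The plot of steps shows the 936 contigs whose late libraries all exceeded their early ones, by at least 2-fold in the mean. The 69 are those with every soil library in the gap. Over the 69, the first step had a median of 1.204 (range 1.002 to 3.455) and the second a median of 1.298 (1.017 to 3.048). Few gaps were wide on both sides. Both steps were above 1.1 in 44 contigs, above 1.2 in 25, above 1.5 in 7 and above 2 in 2.

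Unigene1963_mixA, of 1228 bases, ranked first. It stood at 4.22, 2.56 and 4.14 FPKM in early replicates 1, 2 and 3, at 13.2, 12.5 and 9.44 FPKM in the terrestrial ones and at 51.7, 148 and 40.2 FPKM in the late ones. Every late library was at least 3.04 times every terrestrial library, and every terrestrial library at least 2.24 times every early one. Means were 3.64 ± 0.94 early, 11.7 ± 2.02 terrestrial and 80.05 ± 59.35 late FPKM (SD, n = 3), a late to early ratio of 22.0.

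Unigene5138_mixA, of 1120 bases, had the largest first step, 3.46, and a second step of 2.18. Its FPKM was 1.83, 1.95 and 1.59 in early, 5.03, 4.40 and 4.25 in terrestrial and 23.5, 47.4 and 17.4 in late replicates 1, 2 and 3. As in Unigene1963_mixA, late replicate 2 was the highest library and the late group the most uneven. Neither contig had a whole expected count in any of the 9 libraries, and how the fractional counts arose was not tested.

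Unigene1322_mixA, of 733 bases, had the largest second step, 3.05. Its early libraries were close together at 1.33, 1.47 and 1.34 FPKM, its terrestrial ones lay at 7.58, 4.48 and 7.74 FPKM and its late ones at 49.8, 13.5 and 23.2 FPKM. Here late replicate 1 was highest. The early level rested on few reads, 11 in the lowest library, and the counting interval of its second step ran from 1.54 to 6.46 (95%, exact binomial on the counts of the libraries that set the step).

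Unigene23974_mixA, of 1796 bases, was even within each group. It had 4.47, 4.55 and 5.21 FPKM in early, 9.10, 9.24 and 9.20 FPKM in terrestrial and 19.7, 19.7 and 21.9 FPKM in late replicates 1, 2 and 3. Each move was about the same size, with the terrestrial mean 1.94 times the early mean and the late mean 2.23 times the terrestrial mean. Unigene15912_mixA, of 1112 bases, varied more among its early libraries, at 5.6 ± 1.04 early, 11.6 ± 0.35 terrestrial and 17.4 ± 1.12 late FPKM (SD, n = 3). Early replicate 1 of Unigene15912_mixA, at 4.40 FPKM, lay below its other early libraries, at 6.25 and 6.15.

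Unigene32623_mixA, of 1679 bases, combined wide gaps with a high level. It measured 25.1, 28.3 and 21.0 FPKM in early, 45.1, 65.8 and 45.4 FPKM in terrestrial and 183, 166 and 111 FPKM in late replicates 1, 2 and 3. Unigene29704_mixA, of 1448 bases, had 103, 97.2 and 99.0 FPKM early, 179, 202 and 194 FPKM terrestrial and 561, 323 and 310 FPKM late. Unigene18879_mixA, of 1494 bases, was the most abundant of the 69, at 174 ± 16.1 early, 301 ± 18.4 terrestrial and 519.8 ± 80.1 late FPKM (SD, n = 3). With at least 2768 counts in each library, its steps of 1.36 and 1.49 had counting intervals of 1.31 to 1.42 and 1.43 to 1.56.

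Unigene30198_mixA, of 1090 bases, and Unigene18282_mixA, of 2201 bases, complete the first 10. The former ran from 4.57 ± 1.87 early through 9.28 ± 0.61 terrestrial to 54.3 ± 44.2 late FPKM, with late replicate 1 at 105 and the other late libraries at 22.1 and 36.0. The latter ran from 29.6 ± 3.75 through 46.7 ± 1.57 to 87.2 ± 26.7 FPKM (SD, n = 3), with late replicate 2 highest at 118. The groups do not overlap in either contig, as the rule requires, but the late mean rests mostly on 1 library in the former.

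**Figure D2:**
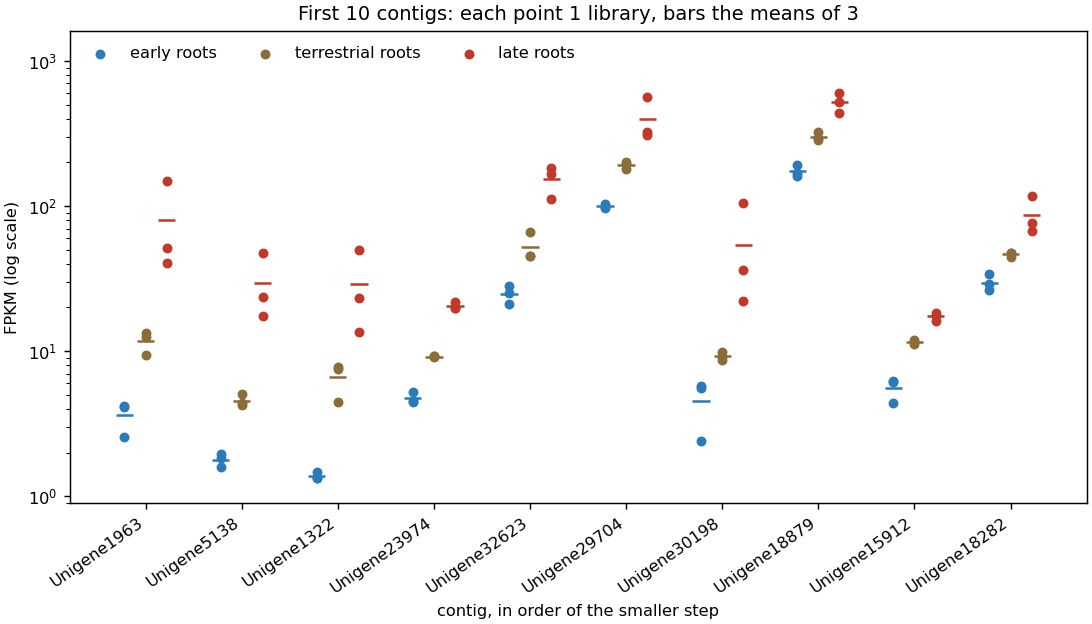
FPKM on a log scale (y axis) of the first 10 contigs (x axis), with 1 point per library and a bar at the mean of 3 libraries for early (blue), terrestrial (brown) and late (red) roots. The groups stand apart in every contig, and the late points spread widest in Unigene30198_mixA (22.1 to 105 FPKM) and Unigene1963_mixA (40.2 to 148 FPKM).

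Levels spanned a wide range. The late mean was 100 FPKM or more in 13 contigs, from 10 to under 100 in 49 and under 10 in 7, with a median of 34.0 FPKM. Of the 936 contigs with late at least 2-fold above early, 9.94% reached a late mean of 100 FPKM, against 18.8% of the 69. Median FPKM over the 69 was 6.77 to 7.83 in the early libraries, 12.7 to 14.1 in the terrestrial ones and 21.9 to 40.2 in the late ones. Together the contigs held 0.168 to 0.184% of all listed counts in early, 0.290 to 0.314% in terrestrial and 0.476 to 0.742% in late libraries.

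After Unigene18879_mixA and Unigene29704_mixA, the next most abundant were Unigene3850_mixA and Unigene19953_mixA. Unigene3850_mixA, of 1328 bases, had nearly equal late libraries at 375, 377 and 379 FPKM, over terrestrial ones at 242, 352 and 208 and early ones at 129, 190 and 146. Terrestrial replicate 2 came close to the late level, and both of its steps were small, 1.07 and 1.09. Unigene19953_mixA, of 625 bases, had 52.3, 70.8 and 70.3 FPKM early, 89.5, 135 and 82.8 terrestrial and 317, 262 and 180 late.

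The change from early to late roots had a median of 3.80-fold and ranged from 2.001 to 22.47-fold. It was at least 3-fold in 44 contigs, 5-fold in 24, 10-fold in 7 and 20-fold in 3. The largest was in Unigene16201_mixA, of 1356 bases, at 2.56, 0.77 and 0.96 FPKM in early, 8.21, 3.97 and 11.6 FPKM in terrestrial and 35.4, 48.3 and 12.7 FPKM in late replicates 1, 2 and 3. Late replicate 3 and terrestrial replicate 3 nearly met, with a first step of 1.09. The other contigs of 10-fold or more were Unigene1963_mixA, Unigene1322_mixA, Unigene5138_mixA, Unigene7250_mixA, Unigene26961_mixA and Unigene30198_mixA, at 22.0, 20.9, 16.4, 16.3, 16.1 and 11.9-fold.

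**Figure D3:**
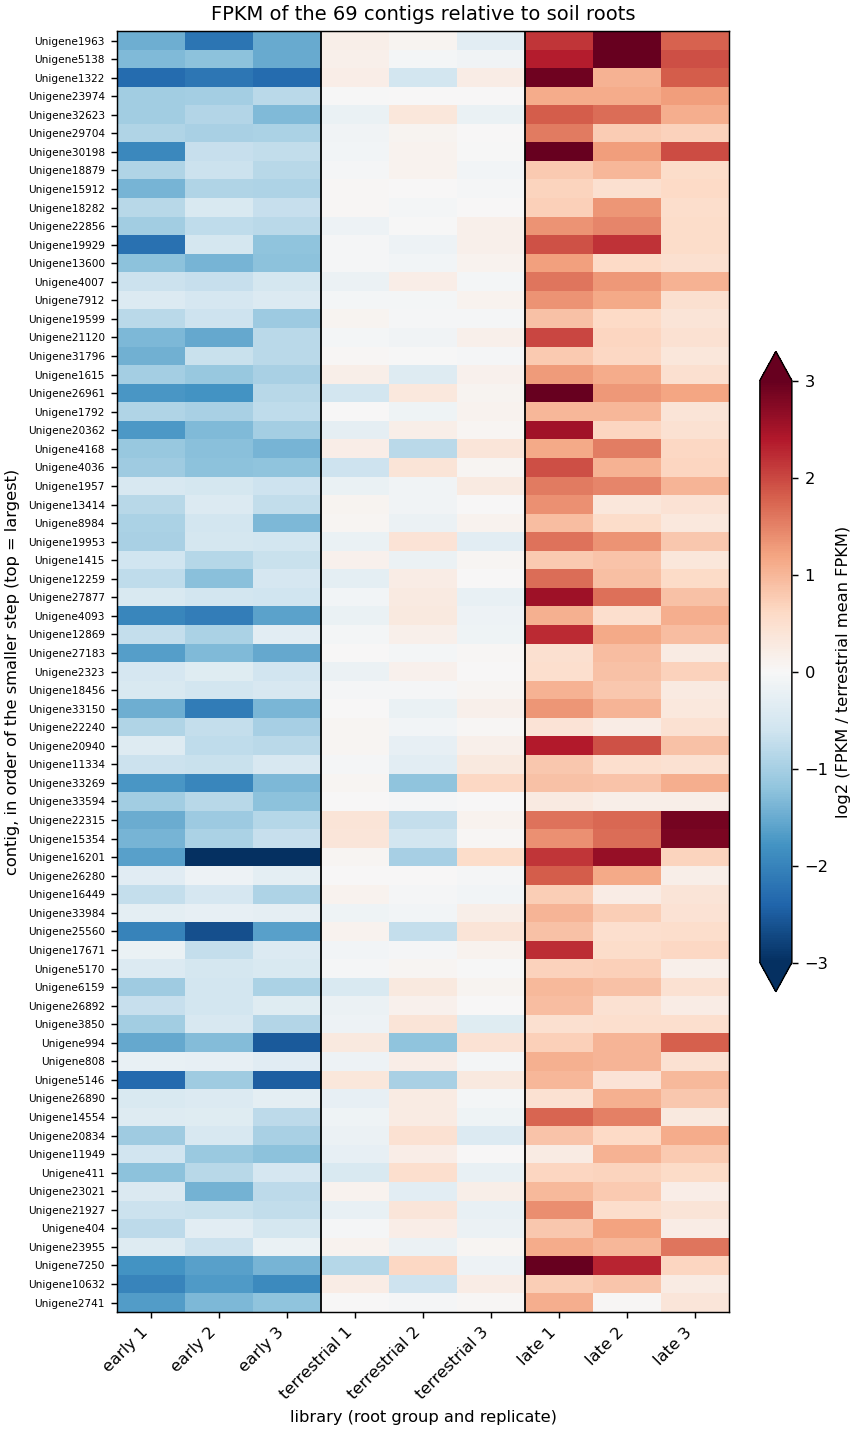
Rows are the 69 contigs in rank order and columns the 9 libraries; colour is log2 of FPKM over the contig's terrestrial mean FPKM, blue below and red above, with the strongest colours standing for all values beyond the scale. Early columns are blue and late columns red throughout, as the rule requires, and late replicate 3 is the palest late column in many rows (it was the lowest late library in 47 of 69).

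The soil level lay at varied places in the gap, as the map of all 69 contigs over the 9 libraries shows. Its place was measured as the share of the log2 distance from the early mean to the late mean at which the terrestrial mean lay, 0 being the early and 1 the late level. The median place was 0.470 (range 0.179 to 0.832). In 46 contigs it lay in the middle of 3 equal parts, in 15 nearer the early level and in 8 nearer the late level.

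Contigs with soil near the early level changed mostly between soil and late water roots. Unigene26280_mixA, the longest of the 69 at 3364 bases, had the lowest place, 0.179. It read 7.36, 8.42 and 7.60 FPKM in early, 9.38, 9.44 and 9.14 FPKM in terrestrial and 32.6, 20.3 and 10.6 FPKM in late replicates 1, 2 and 3. Early and terrestrial roots differed by 1.196-fold in the mean, and late replicate 3 lay just above soil. Unigene27877_mixA (place 0.224) had 2.09 ± 0.12 early, 3.03 ± 0.56 terrestrial and 10.9 ± 6.24 late FPKM, and Unigene808_mixA (place 0.235) had 6.95 ± 0.28, 8.37 ± 1.04 and 15.3 ± 3.39 FPKM (SD, n = 3). In each of the contigs named here, early and soil libraries overlapped under another scaling of the libraries, given below.

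Contigs with soil near the late level differed mostly between early roots and both others. Unigene33594_mixA, of 2239 bases, had the highest place, 0.832, with 3.95, 4.56 and 3.47 FPKM in early, 8.14, 8.0 and 8.27 FPKM in terrestrial and 9.74, 9.25 and 9.19 FPKM in late replicates 1, 2 and 3. Its late mean was 1.15 times the terrestrial mean, the smallest such ratio of the 69. Unigene25560_mixA (place 0.759) had 2.22 ± 0.73 early, 9.10 ± 3.23 terrestrial and 14.2 ± 2.20 late FPKM, and Unigene10632_mixA (place 0.749) had 3.11 ± 0.33, 11.2 ± 3.39 and 17.3 ± 3.50 FPKM (SD, n = 3). In both, terrestrial replicate 2 was well below the other soil libraries, at 5.56 against 9.84 and 11.9 FPKM and at 7.32 against 13.2 and 13.2 FPKM.

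Unigene4093_mixA and Unigene27183_mixA had the next largest second steps after Unigene1322_mixA, 2.66 and 2.38, beside first steps of 1.16 and 1.15. The former had 2.37 ± 0.42 early, 8.67 ± 1.73 terrestrial and 16.4 ± 3.48 late FPKM, and the latter 5.13 ± 0.62, 14.5 ± 0.56 and 21.6 ± 5.23 FPKM (SD, n = 3). In both the gap between early hydroponic and soil roots was wide while that between soil and late hydroponic roots was narrow.

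**Figure D4:**
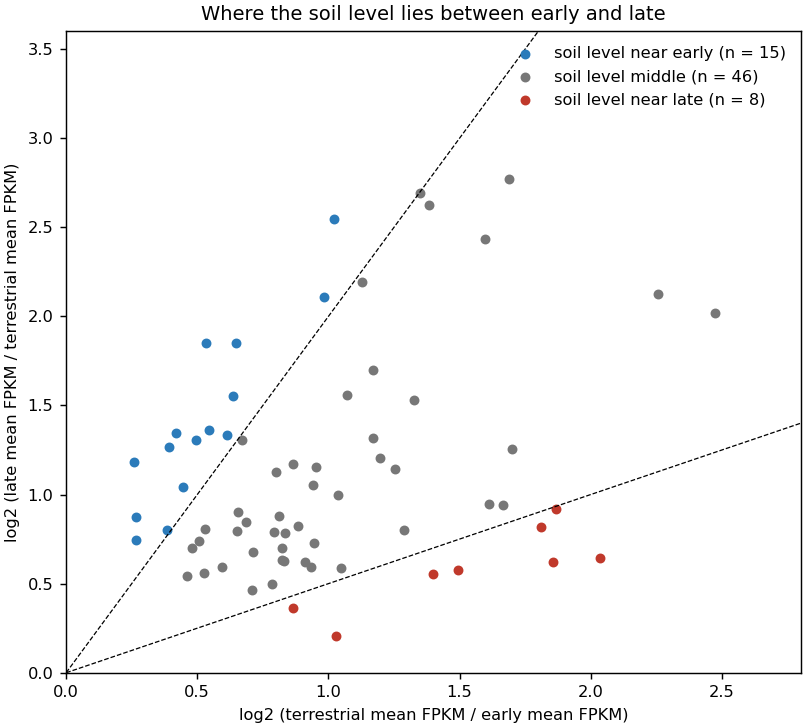
Each point is 1 of the 69 contigs, with log2 of the terrestrial over the early mean FPKM on the x axis and log2 of the late over the terrestrial mean FPKM on the y axis. Dashed lines divide the log2 distance from early to late into 3 equal parts; 15 contigs lie near the early level (blue), 46 between the lines (grey) and 8 near the late level (red).

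Late libraries varied more than the others. The coefficient of variation over 3 libraries had a median of 26.2% in late, 15.2% in early and 13.1% in terrestrial roots, and late was the most variable group in 47 of 69 contigs (68.1%), in 53.2% of the 936 and in 44.7% of the 13171. Over the 936 contigs with late at least 2-fold above early, the medians were 30.5, 18.7 and 23.1%, and over the 13171 they were 15.9, 11.1 and 13.8%. The soil libraries of the 69 were thus closer together than in the 936 and about as close as in the 13171. The rule favours close soil libraries by asking that they sit inside the gap. The most uneven late values were in Unigene26961_mixA, at 468, 83.2 and 77.4 FPKM, and Unigene20362_mixA, at 23.1, 6.27 and 5.49 FPKM, with late replicate 1 far above the others in each.

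Late replicate 3 was the lowest late library in 47 of 69 contigs (68.1%) and late replicate 1 the highest in 41 (59.4%). These shares were 68.3 and 51.0% in the 936 contigs with late at least 2-fold above early, and 41.0 and 28.4% in all 13171 contigs screened. A low late replicate 3 was therefore about as frequent in the 69 as in the other contigs that were higher late than early. In the 13 contigs of the reversed order late replicate 3 was the highest late library in 10. In both sets it was thus most often the late library nearest to soil, and so also nearest to early roots. Without late replicate 3 the rule found 162 contigs, and without terrestrial replicate 2 it found 126. What set these libraries apart was not tested.

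Some contigs departed from that pattern, and those that follow were picked after their values were seen. In 6 contigs late replicate 3 was the highest late and terrestrial replicate 2 the lowest soil library, 8.7% of the 69 beside 4.38% of the 936 and 19.9% of the 13171. The opposite, late replicate 3 lowest and terrestrial replicate 2 highest, held in 21 of the 69 (30.4%), in 35.9% of the 936 and in 17.0% of the 13171. Unigene22315_mixA had a first step of 2.37 but a second step of only 1.11. It had 112, 118 and 262 FPKM in late and 47.2, 21.8 and 38.6 FPKM in terrestrial replicates 1, 2 and 3, over 12.8, 16.8 and 19.7 FPKM in early ones. Unigene15354_mixA had 49.8, 61.1 and 136 FPKM late, 24.7, 13.0 and 19.7 terrestrial and 7.22, 9.97 and 11.8 early. The ups and downs of these contigs within groups matched closely, with a correlation of 0.982 over 9 libraries between their log2 FPKM less the group means. Unigene26961_mixA and Unigene20362_mixA were alike in the same way (0.974), as were Unigene7912_mixA and Unigene18456_mixA (0.996). These pairs were among the most alike of all 2346, whose median was 0.251, and all pairs share the same libraries and their depth. Taking out the group means also leaves fewer than 9 free values per contig, and Unigene7912_mixA had only 15 to 47 counts per library.

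In length the 69 contigs ran from 258 to 3364 bases with a median of 1225, against 1342 for the 13171 screened and 1108 for the 936. After Unigene26280_mixA the longest were Unigene5170_mixA, of 3108 bases, and Unigene4007_mixA, of 3058 bases. Unigene4007_mixA had 13.3 ± 0.77 early, 20.4 ± 2.85 terrestrial and 51.4 ± 10.1 late FPKM (SD, n = 3). The shortest were Unigene21927_mixA, of 258 bases, and Unigene13600_mixA and Unigene13414_mixA, of 268 bases each, and such contigs can be fragments of a transcript. Unigene13600_mixA had 19.7, 17.7 and 19.8 FPKM early, 45.6, 44.0 and 49.8 terrestrial and 108, 69.8 and 64.7 late. Unigene13414_mixA, of the same length, was lower at 15.3 ± 2.41, 24.0 ± 1.68 and 41.6 ± 17.4 FPKM.

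Expected counts were whole, within 0.01 of a read, in all 9 libraries for 60 of 69 contigs (87.0%), against 85.6% of the contigs screened. They were whole in none of the libraries for Unigene1963_mixA, Unigene5138_mixA and Unigene1957_mixA. Unigene1957_mixA, of 626 bases, had 9.92 ± 0.51 early, 14.5 ± 2.67 terrestrial and 37.2 ± 6.85 late FPKM (SD, n = 3). The lowest count of a contig over its 9 libraries had a median of 58 and ranged from 10 to 2768. The counting intervals of both steps lay above 1 in 21 contigs and those of neither step in 24. They cover counting error in the 2 libraries that set a step, which the rule chose for being closest.

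At the edge of the rule the gaps closed. The last contigs inside were Unigene7250_mixA, Unigene10632_mixA and Unigene2741_mixA, with smaller steps of 1.013, 1.009 and 1.002. Unigene7250_mixA reached 80.1 FPKM in late replicate 1, but late replicate 3, at 12.8, and terrestrial replicate 2, at 12.7, were almost equal. In Unigene2741_mixA late replicate 2 had 36.6 FPKM and terrestrial replicate 3 had 36.5. The nearest contigs outside by the steps were Unigene220_mixA, Unigene5738_mixA and Unigene3848_mixA, with smaller steps of 0.997, 0.993 and 0.983. By the size of the late to early ratio the nearest inside was Unigene5170_mixA at 2.001 and the nearest outside Unigene14369_mixA, Unigene1067_mixA and Unigene7320_mixA at 1.98, 1.98 and 1.95.

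A fit across all contigs put the same values on another scale. EdgeR's quasi-likelihood test on the counts, with TMM scaling, called a contig at an adjusted p under 0.05 (Benjamini-Hochberg over all 26747 contigs tested). Of the 69 contigs, 62 were called higher in late than in terrestrial roots, where 28.7% of all contigs tested and 30.6% of the 13171 screened were called higher. All 69 were called higher in late than in early roots (8.37% of all tested, 7.92% of those screened) and 28 were called lower in early than in terrestrial roots (31.0% of all tested, 31.7% of those screened). The rule used each of these contrasts, so nothing is read from these counts.

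The fitted log2 changes had medians over the 69 of 1.01 for late against terrestrial, 1.79 for late against early and -0.63 for early against terrestrial roots, beside 0.02, 0.04 and -0.09 over all contigs tested. In Unigene16201_mixA the changes were 2.10 ± 0.58, 4.32 ± 0.66 and -2.21 ± 0.64 (SE). In Unigene23974_mixA they were 1.25 ± 0.13, 1.97 ± 0.13 and -0.72 ± 0.13. On this scale early and terrestrial roots were close in some contigs that the FPKM order admits, with -0.02 ± 0.33 in Unigene26280_mixA, -0.03 ± 0.15 in Unigene33984_mixA and -0.04 ± 0.19 in Unigene808_mixA for early against terrestrial roots. The contigs not called between late and terrestrial roots were Unigene33594_mixA, Unigene25560_mixA, Unigene3850_mixA, Unigene5146_mixA, Unigene411_mixA, Unigene23021_mixA and Unigene2741_mixA, with changes from 0.30 ± 0.14 to 0.93 ± 0.44.

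The scale between libraries decided part of the set. FPKM rests on library totals, and over the 13171 contigs the median log2 change by edgeR was 0.15 with library totals and 0.01 with TMM for late against early, and -0.25 and -0.01 for early against terrestrial roots. With FPKM divided by the TMM factors the rule found 50 contigs, 45 of them among the 69. Of the 24 lost, 23 had early and soil libraries that then overlapped, and all 69 kept late above soil. The 24 include Unigene26280_mixA, Unigene27877_mixA and Unigene808_mixA, where soil lay nearest the early level, with second steps of 0.888, 0.954 and 0.885. Unigene22315_mixA and Unigene15354_mixA were lost too, at 0.996 and 0.992. Scaling FPKM to an equal sum per library (TPM) acted on the other gap: 57 of the 69 stayed, 10 lost late above soil, and all 69 kept soil above early. The median second step was 1.298 as deposited, 1.1 with TMM and 1.352 with TPM, and the median first step 1.204, 1.336 and 1.143. With TMM, DESeq2 size factors and TPM alike, 35 contigs met the rule, including all of the first 10.

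**Figure D5:**
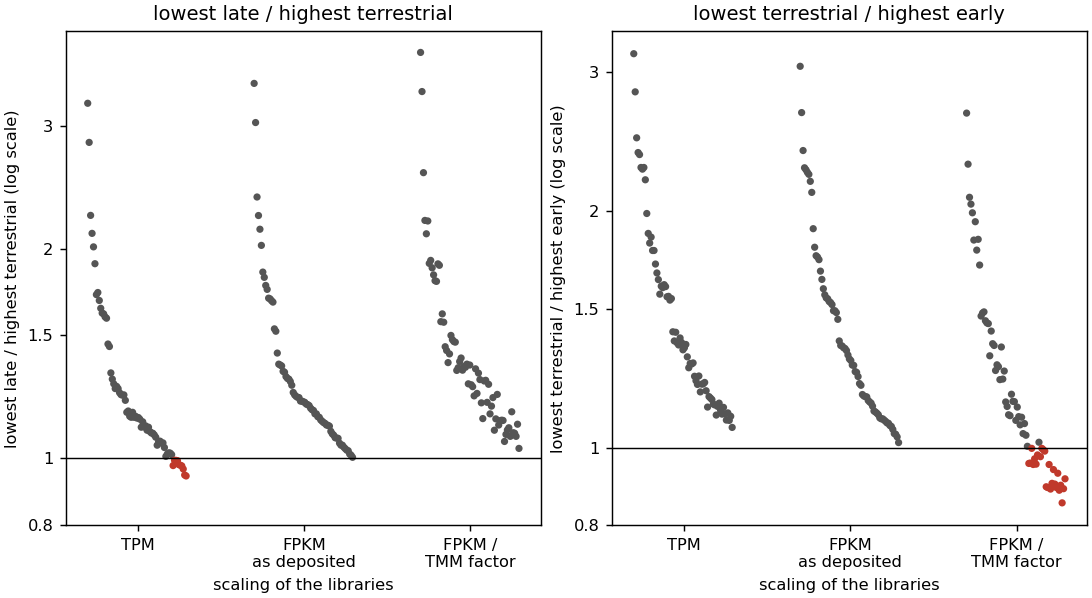
The first step (left, lowest late over highest terrestrial) and second step (right, lowest terrestrial over highest early) of the 69 contigs as ratios on log scales (y axes), under 3 scalings of the libraries (x axes); within a scaling the points stand in order of the deposited step, and red points lie at or below 1. With TPM 10 contigs drop below the line on the left and none on the right, and with TMM 23 do so on the right and none on the left. Unigene12259_mixA and Unigene33269_mixA are drawn at 1.0 after rounding with TMM on the right, so they are red too, though they met the rule.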

How the data were processed

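RNA of 9 root libraries was measured, 3 per group. Per the file headers, each of the authors' deposited tables gives a contig identifier, its length, an expected count (an estimate that need not be whole) and an FPKM value per contig. Per the series' design text, the contigs were assembled de novo from a pooled sample. The assembler, aligner, counting program and strandedness are not given in the sources used here.

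The contigs were picked by FPKM order in all 9 libraries, and the contigs and named lists were chosen with earlier results of these data known. Named contigs are the first 10 ranks, the extremes of level, ratio, step, length, late variation and soil place, and those next to the limits. As 69 passed where 80 were allowed, the nearest misses replaced the first 3 outside 80.

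Expected counts were rounded and fitted with edgeR 4.0.16 (R 4.3.3; filterByExpr with a minimum count of 10, TMM, robust quasi-likelihood, 3 groups together, no block). The SE was worked out from the F statistic and so restates the test. The test weighs groups against the spread of their libraries, part of which may be technical. Correlations used log2 CPM with a prior count of 2. Alternatives used DESeq2 1.42.0, limma 3.58.1 on log2(FPKM + 1) and log2(FPKM + 0.1), other scalings, count minimums, and each library left out. The rule and the fits were tested on simulated data. Replicate numbers do not pair the libraries by any label, and no contig sequences were used.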

Additional observations from a re-analysis of the deposited data

How the results depend on the processing

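The 69 contigs that met the rule became 45 with DESeq2 size factors, 105 with no minimum count, 44 with a late to early ratio of at least 3, and 32 when clustered contigs were screened instead. TMM scaling kept 45 of the 69 and DESeq2 size factors 40. Leaving out 1 library gave 80 to 162 contigs, with 38 to 67 of the 69 among the first 80; fewer libraries make the order easier to meet. The extremes, 162 and 38, came without late replicate 3, and without terrestrial replicate 2 there were 126 and 43. Without both (chosen after seeing the data) 258 contigs passed and 34 of the 69 were among the first 80. TPM, FPKM + 1, minimum counts of 5 and 20 and a ratio of 1.5 moved the number passing by less than 1.5-fold.

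The 28 contigs called lower in early than in terrestrial roots were 46 with library totals, 48 and 49 with limma on log2(FPKM + 1) and log2(FPKM + 0.1), and 17 to 33 with 1 library left out, the lowest without early replicate 3. Of the 13171 contigs screened, 4172 were called lower there with TMM and 5252, 5268 and 5260 under the first 3 of these alternatives. With 1 library left out, 3502 to 4128 of the 13171 were called lower there. Calls were 44 to 58 of the 69 for late against terrestrial and 50 to 69 for late against early roots with 1 library left out. Of the 13171, 3407 to 3912 and 372 to 1225 were called higher in late roots with 1 library left out. All contigs called between late and early roots, 3922, ran from 1598 to 5687 in the same way (1598, 1847 and 1728 without early replicates 1, 2 and 3, 1967 and 2038 without late replicates 1 and 2) and were 7145 without late replicate 3 and terrestrial replicate 2. With the replicate number as a block, 56, 65 and 28 of the 69 were called for late against terrestrial, late against early and early against terrestrial roots. In that fit 3876, 819 and 4063 of the 13171 screened were called in the same directions. Same-numbered libraries had correlations of deviations from -0.0927 to 0.135, and differently numbered ones from -0.165 to 0.126. Between early and late roots the same-numbered ones had 0.0547, 0.0719 and 0.0211, and the others -0.0578 to 0.000114. Between terrestrial roots and either hydroponic group the ranges overlapped. Whether the numbers pair the libraries was not tested. No log2 change of a named contig that was called turned sign under any alternative. The causes were not tested.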
